A study of Mus musculus with 11 samples.

Results

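The protein disulfide isomerases and Ero1 oxidases of the hepatocyte endoplasmic reticulum (ER) are described here through 10 genes, *P4hb*, *Pdia3*, *Pdia4*, *Pdia5*, *Pdia6*, *Txndc5*, *Creld2*, *Dnajc10*, *Ero1l* and *Ero1lb*, out of 54232 Ensembl identifiers in the count files. They were chosen by name, as members of this redox chaperone family, with earlier results of these data known. Each of the 10 was found and passed the filter on low counts. The study asked how loss of the transcription factor XBP1 in hepatocytes changes ER stress signaling under a diet that injures the liver. RNA from Percoll-purified hepatocytes of adult male C57BL/6 mice was sequenced as 50 bp single-end reads. *Xbp1* LKO mice carried floxed *Xbp1* and a Cre recombinase driven by the albumin promoter, so that deletion was limited to cells that use that promoter, and *Xbp1* fl/fl mice were the controls. Mice ate chow and drank plain water, or were given a Western diet with fructose and glucose in the water (the high fat sugar, or HFS, diet). The groups, named below by diet and genotype, were chow fl/fl (3 libraries), chow LKO (2), HFS fl/fl (3) and HFS LKO (3). Feeding lasted up to 6 weeks. A chow library came from 1 mouse and an HFS library from a pool of 2 mice.

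Protein disulfide isomerases are thioredoxin-fold enzymes that form, break and reshuffle disulfide bonds in proteins entering the secretory pathway. Each time such an enzyme oxidizes a client its own active site is reduced, and the flavoprotein oxidases encoded by *Ero1l* (ERO1α) and *Ero1lb* (ERO1β) pass these electrons to oxygen. Hepatocytes secrete large amounts of disulfide-bonded plasma proteins, and many genes of this machinery are known targets of the unfolded protein response (UPR), whose branches act through XBP1, ATF6 and PERK.

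Library totals ran from 19191032 to 23888401 counts, and the chi-square per degree of freedom between paired libraries of one group was 27.9 to 102, far above the value near 1 that counting error alone gives, so the spread between libraries and not depth set the precision. The members together took 0.198% to 0.387% of a library's counts. *Xbp1* itself read 194 to 221 CPM (a gene's count scaled to the library total) in chow fl/fl, 95.7 and 128 CPM in chow LKO, 242 to 301 CPM in HFS fl/fl and 97.3 to 135 CPM in HFS LKO libraries, although these gene-level counts also hold reads from exons that were not deleted. Of 9 hepatocyte marker genes matched, each was detected in every group, and their summed level was 132389 to 171182 CPM in chow fl/fl and 38589 to 74064 CPM in chow LKO libraries. The same sums in HFS fl/fl and HFS LKO libraries were 115188 to 138394 and 59402 to 88653 CPM. The marker *Alb* alone took 8.06% to 10.9% of a library's counts in chow fl/fl and 3.72% and 1.67% in chow LKO. Its share was 5.88% to 7.42% in HFS fl/fl and 3.33% to 5.40% in HFS LKO libraries. Marker sums of other cell types were low, at 14.2 to 72.6 CPM for macrophages, 22.8 to 125 CPM for endothelial cells, 11.6 to 64.0 CPM for stellate cells, 5.16 to 18.7 CPM for cholangiocytes and 1.08 to 9.78 CPM for B and plasma cells. By edgeR 3 of the 9 hepatocyte markers were called lower in LKO on chow and 2 on the HFS diet, 2 and 1 of 3 cholangiocyte markers tested, and 0 of those of the other types. *Cftr*, *Krt7*, *Cldn7*, *Ms4a1*, *Cd79a* and *Cd79b* were among the markers at 0 in at least 1 group. The part of the lower hepatocyte marker level in the values given here was not tested, and in bulk RNA fewer cells of a type and less RNA per cell cannot be told apart. The second chow LKO library stood apart, with the highest level of the ER chaperone gene *Hspa5* (2639 CPM against 565 to 1685 in the other libraries) and of the stress factor gene *Ddit3* (132 CPM against 2.95 to 44.5). Chow log2 fold changes of the members are therefore given with and without that library.

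Levels are CPM scaled by edgeR's trimmed mean of M values (TMM), and fold changes, standard errors (SE) and adjusted p-values come from edgeR's quasi-likelihood test over 13303 genes with Benjamini-Hochberg adjustment, where a call means an adjusted p under 0.05. Loss of *Xbp1* was accompanied by lower *P4hb*, *Txndc5* and *Dnajc10* transcript on both diets. *P4hb* fell 3.01-fold on chow and 2.24-fold on the HFS diet, *Txndc5* 2.57-fold and 1.81-fold, and *Dnajc10* 1.98-fold and 1.49-fold. The other 7 members, among them *Pdia3*, *Pdia4*, *Pdia6* and both oxidase genes, passed the test on neither diet, and no member was called higher. The 3 called of 10 stand against 3.02% of all genes tested that were called lower on chow and 2.16% on the HFS diet. For comparison 1.73% of genes were called higher on chow and 1.92% on the HFS diet. Because the list was drawn up with earlier results of these data known, these shares are no independent test of the members. By size, 8 members had a negative log2 fold change on chow, with a median over the 10 of -0.55, and 9 on the HFS diet, with a median of -0.62, while the medians over all genes tested were 0.0024 and 0.0083. With library totals in place of TMM, *Pdia3* on the HFS diet changed sign to 0.10.

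**Figure D1:**
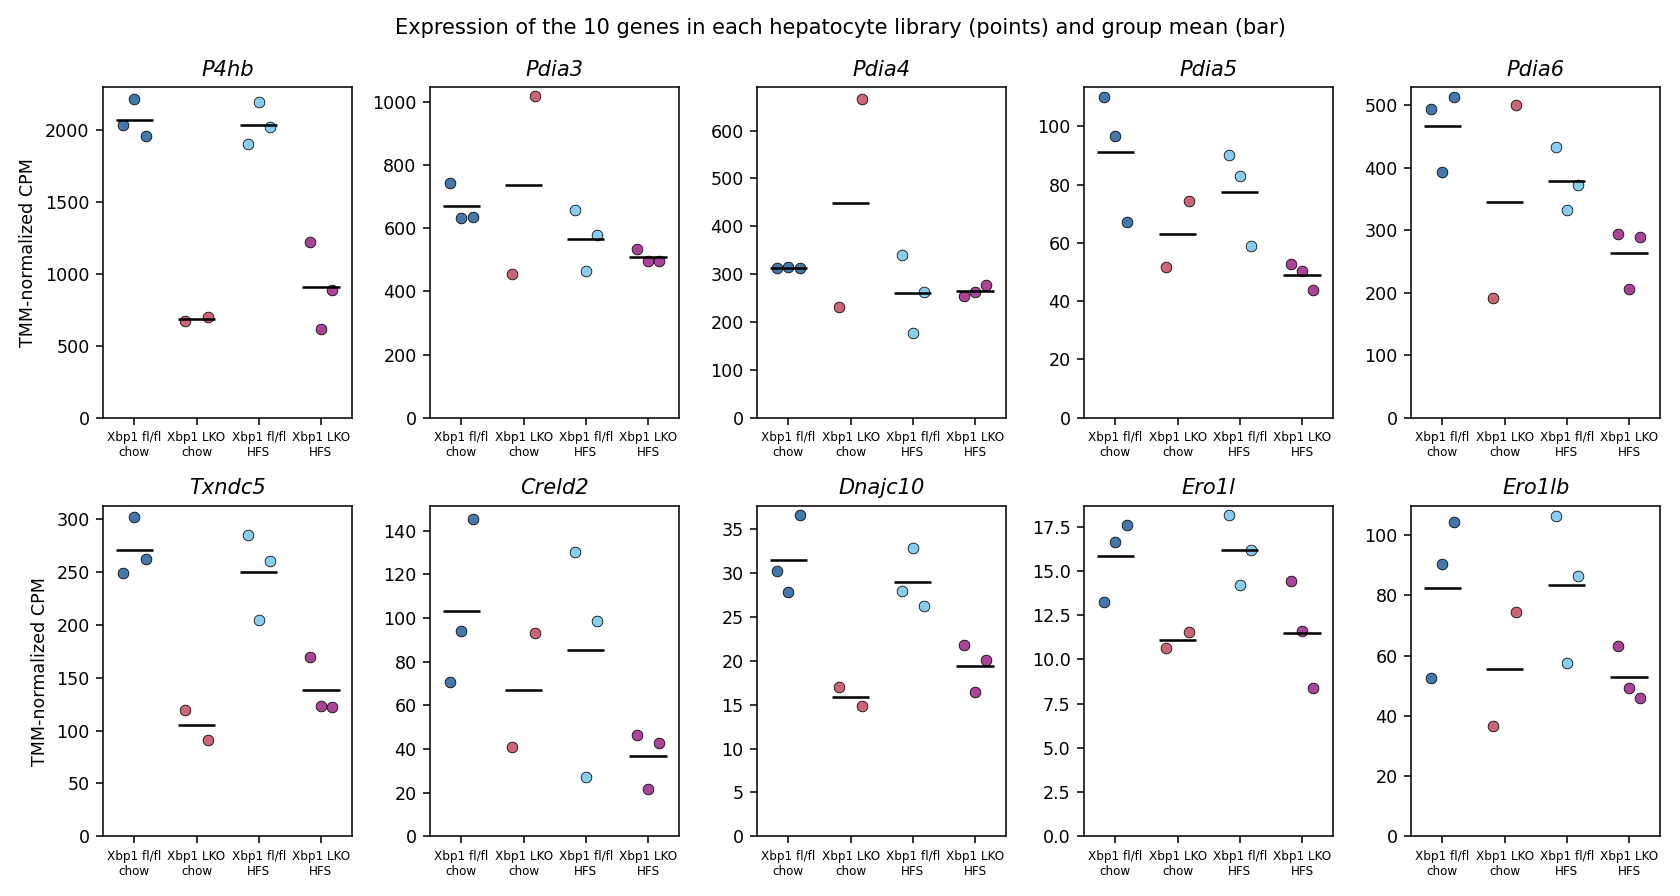
TMM-normalized CPM (y axes, from 0) of the 10 genes in each of the 11 hepatocyte libraries (points), by genotype and diet, with the group mean as a bar. *P4hb*, *Txndc5* and *Dnajc10* show no overlap between genotypes on either diet, and the second chow LKO library is the highest of all 11 for *Pdia3* (1017 CPM) and *Pdia4* (666 CPM).

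*P4hb* (ENSMUSG00000025130) encodes the archetypal protein disulfide isomerase, which also serves as the β subunit of prolyl 4-hydroxylase and as the small subunit of the microsomal triglyceride transfer protein. It lies on chromosome 11 at 120560298 to 120573253 of GRCm38, on the minus strand. Chow fl/fl libraries held 2034, 2217 and 1962 CPM and chow LKO libraries 671 and 703 CPM. HFS fl/fl libraries held 1899, 2191 and 2022 CPM and HFS LKO libraries 1219, 618 and 888 CPM. All *Xbp1* LKO libraries lay below all *Xbp1* fl/fl libraries, and the *Xbp1* LKO libraries were tight on chow and spread over a wide range on the HFS diet. The log2 fold change was -1.59 (SE 0.24, edgeR adjusted p = 0.0054) on chow and -1.17 (SE 0.21, edgeR adjusted p = 0.011) on the HFS diet. Leaving out any 1 of the 6 HFS libraries kept the call of this gene. It was called in 4 of the 5 that left out 1 chow library, the exception being the fit without the second chow LKO library (-1.63, edgeR adjusted p = 0.065).

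*Txndc5* (ENSMUSG00000038991, chromosome 13, 38500079 to 38528824, minus strand) encodes ERp46, an isomerase with 3 thioredoxin domains known for rapid introduction of disulfides. Its levels were 249, 302 and 262 CPM in chow fl/fl and 119.6 and 91.0 CPM in chow LKO libraries. Under HFS feeding they were 285, 205 and 261 CPM in *Xbp1* fl/fl and 169.5, 123 and 122 CPM in *Xbp1* LKO libraries. The genotypes did not overlap on either diet. The log2 fold changes were -1.36 (SE 0.21, edgeR adjusted p = 0.0053) on chow and -0.86 (SE 0.18, edgeR adjusted p = 0.022) on the HFS diet. Without the second chow LKO library the chow call was lost at nearly the same size (-1.18, edgeR adjusted p = 0.074). On the HFS diet it was kept in 2 of the 6 fits that left out 1 library and lost without fl/fl library 1 or 3 or LKO library 2 or 3, with edgeR adjusted p of 0.109 at most. *Txndc5* shares 224 exon bases with *Bmp6* and 311 with the antisense gene *Gm31834*, both on the other strand, where no library exceeded 52 and 12 counts.

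*Dnajc10* (ENSMUSG00000027006, chromosome 2, 80315466 to 80354043, plus strand) encodes ERdj5, a reductase that joins a J domain to thioredoxin domains and opens disulfides of misfolded proteins before they leave the ER for degradation. Levels were 30.2, 27.8 and 36.5 CPM in chow fl/fl and 17.0 and 14.8 CPM in chow LKO libraries. They were 27.9, 32.8 and 26.3 CPM in HFS fl/fl and, in HFS LKO libraries, 21.8, 16.5 and 20.1 CPM. Here too the genotypes were separate on both diets, by a narrow margin on the HFS diet. The log2 fold changes were -0.99 (SE 0.16, edgeR adjusted p = 0.0078) on chow and -0.58 (SE 0.14, edgeR adjusted p = 0.047) on the HFS diet. The HFS call was the least firm of the 6, since library totals in place of TMM gave -0.32 (edgeR adjusted p = 0.137) and 5 of the 6 fits that left out 1 library lost it, all but the one without the first *Xbp1* LKO library. The chow call was lost without the second chow LKO library (-0.89, edgeR adjusted p = 0.101), so that the count of members called lower on chow went from 3 to 0 in that fit, in which the lone remaining library is assumed to vary like the other groups.

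*Pdia3* (ENSMUSG00000027248, chromosome 2, 121413775 to 121438687, plus strand) encodes ERp57, the isomerase that works with the lectins calnexin and calreticulin on glycoproteins. *Pdia4* (ENSMUSG00000025823, chromosome 6, 47796141 to 47813430, minus strand) encodes ERp72, which has 3 active thioredoxin-like domains. *Pdia3* read 744, 633 and 636 CPM in chow fl/fl libraries, but 456 and 1017 CPM in the chow LKO libraries, which lay on either side of all controls. With HFS feeding *Pdia3* read 658, 465 and 577 CPM in *Xbp1* fl/fl and 533, 496 and 497 CPM in *Xbp1* LKO libraries, with full overlap. *Pdia4* read 313, 315 and 314 CPM in chow fl/fl and 231 and 666 CPM in chow LKO libraries, the same split. In HFS-fed mice *Pdia4* read 340.0, 177 and 263 CPM in *Xbp1* fl/fl and 254, 263 and 277 CPM in *Xbp1* LKO libraries.

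For *Pdia3* the 95% confidence interval of the log2 fold change ran from -0.46 to 0.72 on chow and from -0.68 to 0.37 on the HFS diet. For *Pdia4* it ran from -0.25 to 1.28 on chow and from -0.67 to 0.72 on the HFS diet. On the HFS diet a fall as large as the estimate for *P4hb* lay outside both intervals. The chow intervals rest on a spread shared by the 4 groups. The chow LKO libraries differed by more, with an SD in log2 CPM of 0.82 for *Pdia3* and 1.08 for *Pdia4* against pooled values of 0.35 and 0.48. The chow intervals are therefore not used to set a limit on a fall. The chow estimates depended on the second *Xbp1* LKO library: without it *Pdia3* turned from 0.13 to -0.56 and *Pdia4* from 0.52 to -0.44 (edgeR adjusted p = 0.33 and 0.67). Without the first *Xbp1* LKO library *Pdia4* became 1.09 and was called higher (edgeR adjusted p = 0.036). No direction on chow can therefore be given for either gene. *Pdia3* shares 18 exon bases with *Catsper2* on the other strand, which had at most 68 counts in a library.

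*Pdia6* (ENSMUSG00000020571, chromosome 12, 17266545 to 17284770, plus strand) encodes P5, an isomerase that associates with the chaperone BiP and is also known to act on the luminal domains of UPR sensors. It read 495, 393 and 513 CPM in chow fl/fl libraries and 191 and 501 CPM in chow LKO libraries. HFS fl/fl libraries reached 434, 332 and 373 CPM and HFS LKO libraries 294, 206 and 289.6 CPM. The HFS groups did not overlap, yet the log2 fold change of -0.53 (SE 0.29, edgeR adjusted p = 0.39) did not pass. On chow it was -0.43 (SE 0.32, edgeR adjusted p = 0.52), and it was -1.29 without the second *Xbp1* LKO library and 0.10 without the first.

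*Pdia5* (ENSMUSG00000022844, chromosome 16, 35397312 to 35490873, minus strand) encodes an isomerase with 3 thioredoxin domains that is known to act on disulfides of ATF6. Its levels on chow were 110.1, 96.5 and 67.3 CPM in *Xbp1* fl/fl and 51.8 and 74.3 CPM in *Xbp1* LKO libraries, which overlapped. HFS values were 90.0, 83.0 and 58.8 CPM in *Xbp1* fl/fl and 52.7, 50.5 and 43.7 CPM in *Xbp1* LKO libraries, with no overlap. The log2 fold change was -0.53 (SE 0.24, edgeR adjusted p = 0.25) on chow and -0.66 (SE 0.21, edgeR adjusted p = 0.11) on the HFS diet. DESeq2 put the HFS difference of *Pdia5* past the threshold (adjusted p = 0.040) and so called 4 members lower there, against 3.93% of all genes it tested. On chow DESeq2 called the same 3 members as edgeR, against 5.12% of genes.

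*Creld2* (ENSMUSG00000023272, chromosome 15, 88819646 to 88826683, plus strand) encodes a small secretory-pathway protein with isomerase-like activity and is known as a gene that responds sharply to ER stress. It was the most variable member, with a pooled within-group SD of 0.84 in log2 CPM, which exceeded that of 96.1% of genes tested. Its values were 70.6, 94.1 and 145 CPM in chow fl/fl, 40.8 and 93.2 CPM in chow LKO, 130.4, 27.1 and 98.6 CPM in HFS fl/fl and 46.4, 21.7 and 42.5 CPM in HFS LKO libraries. The second HFS fl/fl library fell among the *Xbp1* LKO values. The chow log2 fold change was -0.63 (SE 0.58, edgeR adjusted p = 0.61). The HFS log2 fold change of -1.21 (SE 0.52, edgeR adjusted p = 0.25) was as large as that of *P4hb* with a larger SE (0.52 against 0.21), and its interval ran from -2.34 to -0.08. *Creld2* starts 328 bases from the divergent gene *Alg12*, which was not called on either diet (log2 fold change -0.05 and -0.46).

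The oxidase genes were expressed at lower levels than most isomerases. *Ero1l* (ENSMUSG00000021831, chromosome 14, 45283087 to 45318771, minus strand) read 13.2, 16.6 and 17.6 CPM in chow fl/fl and 10.6 and 11.5 CPM in chow LKO libraries, with no overlap. In HFS-fed mice it read 18.2, 14.2 and 16.2 CPM in *Xbp1* fl/fl and 14.5, 11.6 and 8.4 CPM in *Xbp1* LKO libraries, where the ranges overlapped slightly. Its log2 fold changes were almost equal on the 2 diets, -0.52 (SE 0.21, edgeR adjusted p = 0.21) on chow and -0.50 (SE 0.19, edgeR adjusted p = 0.19) on the HFS diet, and neither passed.

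*Ero1lb* (ENSMUSG00000057069, chromosome 13, 12565874 to 12611396, plus strand), the paralog known best from insulin-producing cells, read 52.5, 90.4 and 104 CPM in chow fl/fl libraries and 36.5 and 74.3 CPM in chow LKO libraries. Levels in HFS fl/fl were 106, 57.5 and 86.3 CPM and in HFS LKO 63.3, 49.3 and 45.9 CPM. The groups overlapped on both diets, and the log2 fold changes of -0.57 (SE 0.35, edgeR adjusted p = 0.41) and -0.66 (SE 0.31, edgeR adjusted p = 0.31) did not pass. Per kilobase of exon, *Ero1lb* stood above *Ero1l* in each of the 11 libraries, by 2.73-fold to 5.12-fold. Without the second chow LKO library the chow log2 fold changes were -0.82 for *Pdia5*, -1.34 for *Creld2*, -0.58 for *Ero1l* and -1.18 for *Ero1lb*, none of them called. Over the members as a whole, 4 did not overlap on chow (*P4hb*, *Txndc5*, *Dnajc10* and *Ero1l*) and 5 on the HFS diet (*P4hb*, *Pdia5*, *Pdia6*, *Txndc5* and *Dnajc10*), all of them lower in *Xbp1* LKO, against 15.9% and 12.5% of all genes tested.

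**Figure D2:**
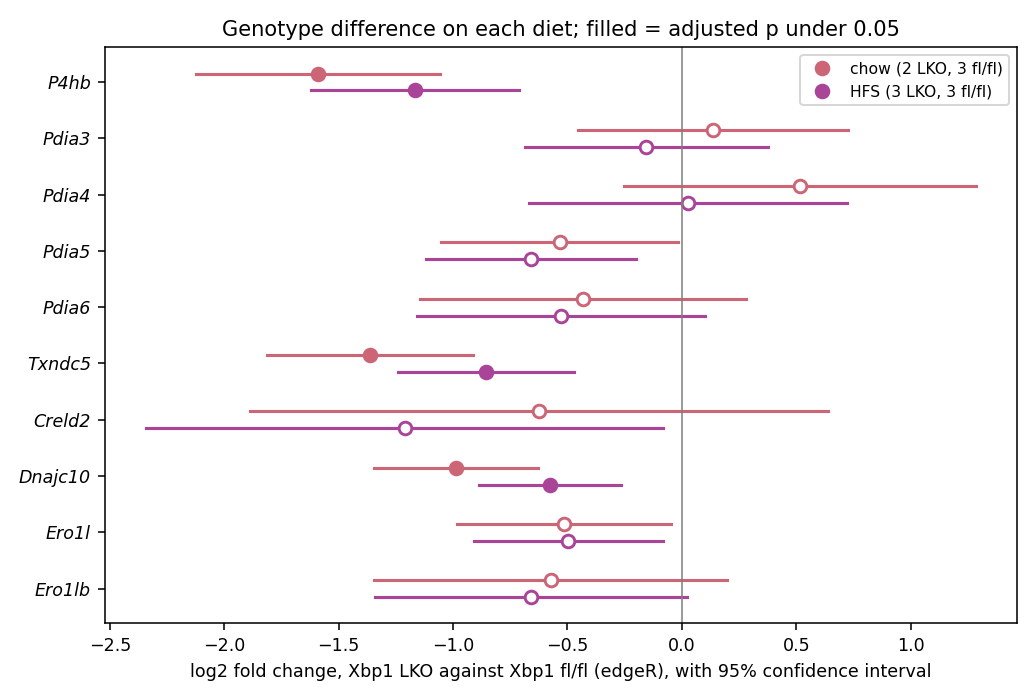
Log2 fold change of each member in *Xbp1* LKO against *Xbp1* fl/fl hepatocytes (x axis) on chow and on the HFS diet, from edgeR, with 95% confidence intervals as lines and filled points where the adjusted p was under 0.05. The filled points are those of *P4hb* (-1.59 and -1.17), *Txndc5* (-1.36 and -0.86) and *Dnajc10* (-0.99 and -0.58), and *Creld2* has the widest intervals.

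Promoter sequence is shown for the 3 genes called lower and for 3 members that were not called but hold an ER stress response element, so that both kinds can be compared. ERSE is the letters CCAAT, 9 bases of any kind, and CCACG, and is known to bind ATF6 or XBP1 together with NF-Y. UPRE is TGACGTGG, known to bind XBP1, and CARE is TTNCATCA, known to bind C/EBP and ATF factors. ERSE-II is ATTGG, 1 base and CCACG. These were searched on both strands in RefSeq windows of GRCm38 from 250 bases before to 50 after each start, of which 32851 were at hand, and all 10 members matched a window (*Ero1l* as *Ero1a* and *Ero1lb* as *Ero1b*, and *Txndc5* with 3 windows). The lines give the bases before the start, 5′ to 3′ on the gene's strand and without any annotated exon, with ERSE and CARE matches in capitals.

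P4hb, chr11:120573254-120573503, minus strand: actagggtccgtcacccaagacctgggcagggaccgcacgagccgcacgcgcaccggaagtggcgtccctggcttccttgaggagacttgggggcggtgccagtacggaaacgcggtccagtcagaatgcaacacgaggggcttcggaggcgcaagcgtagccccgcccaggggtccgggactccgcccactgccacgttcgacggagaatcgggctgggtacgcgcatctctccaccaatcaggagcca

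Txndc5, chr13:38528825-38529074, minus strand: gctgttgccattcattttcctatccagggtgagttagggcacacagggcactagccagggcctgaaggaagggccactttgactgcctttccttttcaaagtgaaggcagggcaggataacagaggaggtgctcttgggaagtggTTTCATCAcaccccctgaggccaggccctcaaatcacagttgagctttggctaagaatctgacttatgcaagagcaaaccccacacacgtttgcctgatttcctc

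Dnajc10, chr2:80315216-80315465, plus strand: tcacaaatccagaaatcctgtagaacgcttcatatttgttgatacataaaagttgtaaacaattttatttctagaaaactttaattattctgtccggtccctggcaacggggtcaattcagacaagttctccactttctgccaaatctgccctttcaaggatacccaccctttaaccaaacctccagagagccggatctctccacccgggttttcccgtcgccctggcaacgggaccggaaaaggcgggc

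Pdia6, chr12:17266339-17266544, plus strand: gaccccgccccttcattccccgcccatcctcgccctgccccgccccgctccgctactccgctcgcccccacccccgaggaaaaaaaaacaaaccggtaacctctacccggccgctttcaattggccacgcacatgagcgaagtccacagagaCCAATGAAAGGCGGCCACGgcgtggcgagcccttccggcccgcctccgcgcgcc

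Creld2, chr15:88819396-88819645, plus strand: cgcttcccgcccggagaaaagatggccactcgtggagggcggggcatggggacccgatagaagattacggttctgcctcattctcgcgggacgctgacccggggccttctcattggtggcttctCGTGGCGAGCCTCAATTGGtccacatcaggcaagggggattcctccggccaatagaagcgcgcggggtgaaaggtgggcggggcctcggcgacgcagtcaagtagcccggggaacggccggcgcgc

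Ero1lb, chr13:12565633-12565873, plus strand: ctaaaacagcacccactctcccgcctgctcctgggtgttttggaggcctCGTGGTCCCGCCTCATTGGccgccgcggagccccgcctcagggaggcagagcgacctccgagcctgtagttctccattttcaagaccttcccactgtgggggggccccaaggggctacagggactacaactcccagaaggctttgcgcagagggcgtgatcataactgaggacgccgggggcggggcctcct

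With the base before the start as -1, an ERSE match was present in the windows of *Pdia6* (-98 to -80), *Creld2* (-126 to -108) and *Ero1lb* (-201 to -183), in the latter pair on the opposite strand, against 0.119% of all windows. None of these 3 genes was called. The windows of *P4hb* and *Dnajc10* held none of the 4 elements. Those of *Txndc5* held a CARE match (-105 to -98 from the outermost start, against 3.97% of all windows) and, inside an annotated exon near the innermost start, a UPRE match (-138 to -131, against 0.676% of all windows). ERSE-II was found in no member and in 0.0365% of windows. The letters CCACG, which are part of ERSE and overlap UPRE on the opposite strand, occurred in 8 of the 10 members but also in 35.5% of all genes (32.8% of all windows). Counted by gene, the shares of the other elements were 0.137% for ERSE, 0.0444% for ERSE-II, 4.51% for CARE and 0.714% for UPRE. These matches describe letters in a short window and not binding.

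Compared per length of exon, *P4hb* was by far the most abundant of the family in control hepatocytes, with 724 ± 46.0 CPM per kilobase (SD, n = 3) on chow. It was followed by *Pdia3* (214 ± 20.03), *Pdia4* (131 ± 0.292), *Pdia6* (125 ± 17.3), *Creld2* (75.6 ± 27.9), *Txndc5* (60.4 ± 6.11), *Pdia5* (32.9 ± 7.89), *Ero1lb* (12.4 ± 4.03), *Dnajc10* (6.30 ± 0.904) and *Ero1l* (3.00 ± 0.436), all in CPM per kilobase (SD, n = 3). Neighbours in this order whose libraries overlapped were *Pdia4* and *Pdia6*, *Pdia6* and *Creld2*, and *Creld2* and *Txndc5*. In the chow LKO libraries *P4hb* (235 and 246 CPM per kilobase) no longer stood clear of *Pdia3* (145 and 324), while in HFS LKO libraries it did, at 216 to 426 against 158 to 169.8 CPM per kilobase.

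The make-up of the family shifted with genotype. *P4hb* accounted for 50.003% to 55.1% of the members' summed CPM per kilobase in chow fl/fl libraries and for 38.2% and 22.1% in the chow LKO libraries. Its share on the HFS diet was 49.3% to 64.4% in *Xbp1* fl/fl and 35.2% to 48.0% in *Xbp1* LKO libraries. The ratio of *P4hb* to *Pdia3* per length was 3.00 to 3.84 in chow fl/fl, 1.62 and 0.758 in chow LKO, 3.17 to 5.17 in HFS fl/fl and 1.37 to 2.51 in HFS LKO libraries. Such ratios do not depend on the scaling between libraries, and the genotypes were separate on both diets. By contrast the ratio of *Ero1lb* to *Ero1l* overlapped, at 3.15 to 4.70, 2.73 and 5.12, 3.21 to 4.64, and 3.37 to 4.34 in the same order. These shares and ratios were chosen after the values were seen and were given no test.

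**Figure D3:**
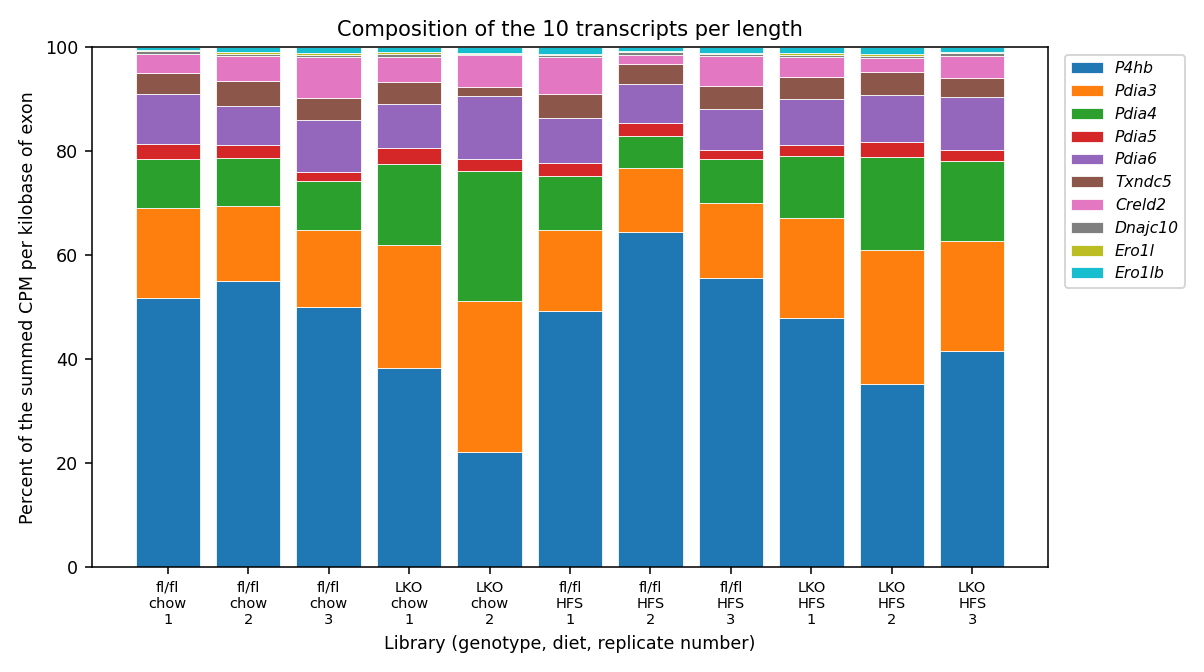
Share of each gene in the summed CPM per kilobase of exon of the 10 members (y axis, percent) in the 11 libraries (x axis). *P4hb*, at the base of each bar, takes 49.3% to 64.4% in the 6 *Xbp1* fl/fl libraries and 22.1% to 48.0% in the 5 *Xbp1* LKO libraries.

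The members also differed in how they varied among libraries of a group. Pooled within-group SDs in log2 CPM were 0.19 for *Dnajc10*, 0.23 for *Txndc5*, 0.26 for *Ero1l*, 0.27 for *P4hb*, 0.31 for *Pdia5*, 0.35 for *Pdia3*, 0.43 for *Pdia6*, 0.48 for *Ero1lb* and *Pdia4*, and 0.84 for *Creld2*, beside a median of 0.23 over all genes tested and 0.66 for *Hspa5*. The 3 called genes were thus among the 4 steadiest members. As a description over the 11 libraries, after removing group means, deviations of *Ero1lb*, *Pdia4* and *Creld2* followed those of *Hspa5* (r = 0.95, 0.87 and 0.87), as did those of *Pdia6* and *Pdia3* less closely (r = 0.78 and 0.77). The coefficient was 0.52 for *Ero1l*, 0.04 for *Pdia5*, 0.06 for *P4hb*, 0.10 for *Txndc5* and -0.19 for *Dnajc10*. *Pdia3* deviated with *Pdia4* (r = 0.96) and *Calr* (r = 0.92). The points share their libraries and scaling, and these coefficients were not recomputed without single libraries. Centring a group of 2 gives deviations of equal size and opposite sign (-0.76 and 0.76 for *Pdia4* in chow LKO). The gap between the chow LKO libraries thus enters each coefficient at both points. Across the members' mean profile, centred on the 11 libraries, the second chow LKO library stood at 0.05 on the log2 scale against -0.59 for the first. The second HFS fl/fl library stood at -0.09 against 0.46 and 0.22 for the others of its group.

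**Figure D4:**
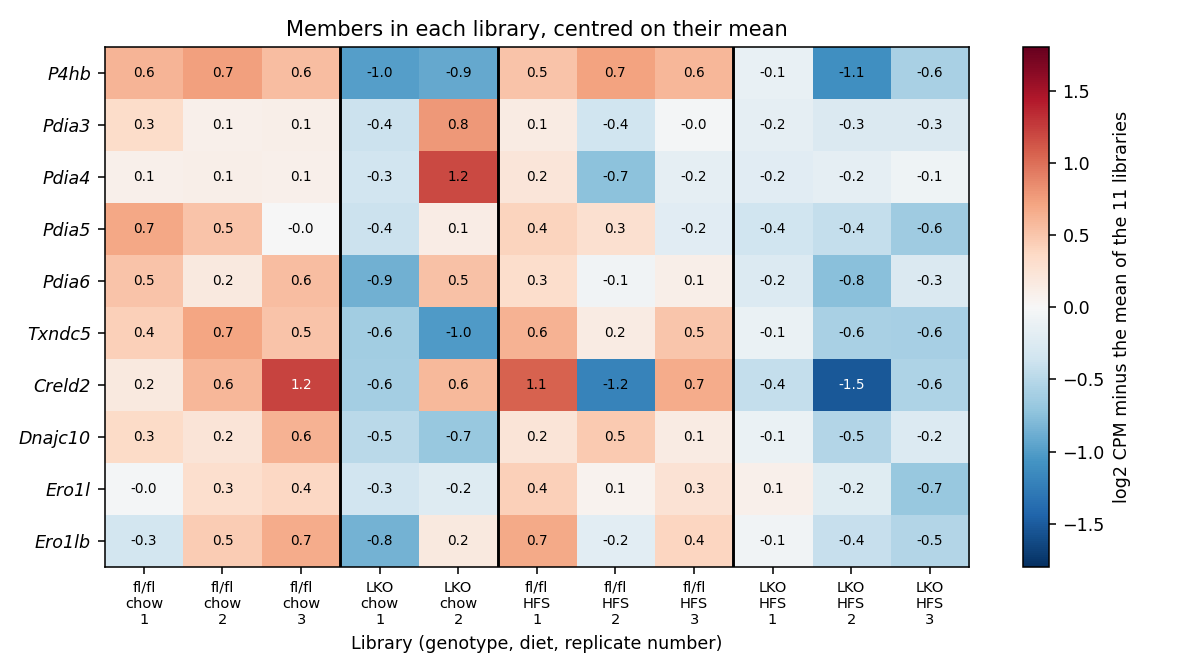
Log2 CPM of each member (rows) in each library (columns), minus the mean of the 11 libraries; red is above and blue below that mean. *P4hb*, *Txndc5* and *Dnajc10* are below their mean in all 5 *Xbp1* LKO libraries, whereas the second chow LKO library is above the mean for *Pdia3*, *Pdia4*, *Pdia5*, *Pdia6*, *Creld2* and *Ero1lb*.

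No member was called between HFS and chow fl/fl hepatocytes or between HFS and chow LKO hepatocytes by edgeR, and none had an unadjusted p under 0.05. The background was also low, with 0.428% of genes called in *Xbp1* fl/fl and 0.0601% in *Xbp1* LKO hepatocytes, and 8.95% and 12.7% at an unadjusted p under 0.05. DESeq2 called no member either, against 1.2% and 1.54% of genes. In *Xbp1* fl/fl hepatocytes the log2 fold changes by diet had a median of -0.18 and lay between -0.30 (*Pdia6*) and 0.03 (*Ero1l*). In *Xbp1* LKO hepatocytes they had a median of -0.22, from -0.86 (*Creld2*, SE 0.56) and -0.76 (*Pdia4*, SE 0.35) to 0.40 (*P4hb*, SE 0.23) and 0.39 (*Txndc5*, SE 0.20). For *Txndc5* the HFS LKO libraries (122 CPM at least) were all above the chow LKO ones (119.6 CPM at most), by a narrow margin. That difference was not called (edgeR adjusted p = 0.44), and the share of all genes so separated by diet was not taken.

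Whether the genotype difference depended on diet was tested as an interaction. The falls of *P4hb*, *Txndc5* and *Dnajc10* were numerically smaller on the HFS diet, by 0.43 (SE 0.31), 0.51 (SE 0.26) and 0.41 (SE 0.21) on the log2 scale, and their 95% confidence intervals of -0.25 to 1.10, -0.07 to 1.09 and -0.06 to 0.88 all included 0. The edgeR adjusted p-values were 0.88, 0.82 and 0.82. No member was called for interaction, at an unadjusted p under 0.05 or by DESeq2, and 0% of all genes were called by edgeR, with 6.13% at an unadjusted p under 0.05 and 0.227% called by DESeq2. HFS libraries are pools and chow libraries are single mice, and this difference cannot be told apart from diet.

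Beyond the 10 members, 13 of 16 further genes of the isomerase family were tested, and *Pdia2*, *Agr2* and *Agr3* had no counts. On both diets 2 of the 13 were called lower and 0 higher (edgeR). Of all genes tested, 3.02% were called lower and 1.73% higher on chow, and 2.16% and 1.92% on the HFS diet. The same shares apply to the lists below, which were also drawn up with earlier results of these data known. *Erp44*, which retains ERO1 oxidases and unassembled clients by thiol exchange, had the larger fall of the called pair. It read 91.0, 100.3 and 97.5 CPM in chow fl/fl, 31.6 and 24.6 CPM in chow LKO, 99.7, 87.6 and 100.4 CPM in HFS fl/fl and 46.5, 28.3 and 39.0 CPM in HFS LKO libraries. Its log2 fold changes of -1.77 (SE 0.19, edgeR adjusted p = 0.0016) and -1.34 (SE 0.17, edgeR adjusted p = 0.0025) were of the size of those of *P4hb* and passed in all 11 alternative fits on chow and all 12 on the HFS diet. *Txndc15*, a membrane thioredoxin-like protein, fell by 0.46 and 0.43 on the log2 scale (edgeR adjusted p = 0.031 and 0.026), a call that library totals in place of TMM ended on both diets (-0.13 and -0.18) and that was also lost without the second fl/fl or either LKO library on chow and in 5 of the 6 fits that left out 1 library on the HFS diet. The list medians were -0.23 and -0.26, beside 0.0024 and 0.0083 over all genes.

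Of 8 tested among 10 other genes of ER thiol redox, 3 were called lower on chow and 1 on the HFS diet, and 0 higher on either. *Prdx4*, the ER peroxiredoxin that uses hydrogen peroxide from the oxidases to oxidize isomerases, fell on chow (log2 fold change -1.26, SE 0.19, edgeR adjusted p = 0.0055), from 90.0 to 113 CPM in *Xbp1* fl/fl to 35.4 and 49.6 CPM in *Xbp1* LKO libraries. On the HFS diet the *Prdx4* libraries were 77.4 to 93.1 and 54.2 to 78.9 CPM (log2 fold change -0.34, not called). The interaction of genotype and diet for *Prdx4* was 0.92 (SE 0.25) and was not called (edgeR adjusted p = 0.66). *Sil1*, a nucleotide exchange factor of BiP, fell on both (-0.83 and -0.99, edgeR adjusted p = 0.010 and 0.0027). *Vkorc1l1*, a paralog of the vitamin K epoxide reductase, fell on chow (-0.49, edgeR adjusted p = 0.018), a call that library totals ended (-0.17). Without the second chow LKO library this list had 0 calls on chow.

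Among the partners of the members, 8 of 10 were tested, and *P4ha3* and *Clgn* had no counts. *Tapbp* (tapasin, the partner of ERp57 in peptide loading) fell on both diets (-0.91 and -1.04, edgeR adjusted p = 0.043 and 0.014), as did *Edem1*, a lectin that directs misfolded glycoproteins to degradation with ERdj5 (-0.74 and -0.83, edgeR adjusted p = 0.022 and 0.0080). *P4ha2*, a catalytic subunit of prolyl 4-hydroxylase, was higher on chow (1.00, SE 0.23, edgeR adjusted p = 0.031), with 8.27 to 11.2 CPM in *Xbp1* fl/fl and 18.1 and 19.7 CPM in *Xbp1* LKO libraries. On chow the 2 lower calls of this list went to 0 without the second fl/fl or either LKO library and under library totals (-0.58 for *Tapbp* and -0.40 for *Edem1*). The chow call of *Tapbp* was also lost without the first fl/fl library (edgeR adjusted p = 0.103). Fitting only the groups compared ended both chow calls (edgeR adjusted p = 0.16 for *Tapbp* and 0.105 for *Edem1*). The HFS call of *Tapbp* was lost without fl/fl library 2 or LKO library 2 or 3 (edgeR adjusted p = 0.053, 0.063 and 0.066), which left 1 of the 2 partners called there. The higher call of *P4ha2* was lost without fl/fl library 1 or 3 or either LKO library. *Mttp*, whose protein pairs with the *P4hb* product to load lipoproteins, read 382 to 504 CPM in chow fl/fl, 357 to 452 CPM in chow LKO, 413 to 469.7 CPM in HFS fl/fl and 448 to 497 CPM in HFS LKO libraries (log2 fold change -0.18 and 0.10, not called). *P4ha1* (0.13 and -0.13) and *Hspa5* (0.47 and -0.07) were not called, and *Hspa5* on chow became -0.66 without the second *Xbp1* LKO library.

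The 8 UPR regulators, all tested, had 1 gene lower and 1 higher on each diet by edgeR. *Xbp1* was lower (-0.87 and -1.26, edgeR adjusted p = 0.018 and 0.0025), and *Ddit3*, which encodes the stress factor CHOP, was higher. *Ddit3* read 4.52 to 6.67 CPM in chow fl/fl and 23.6 and 132 CPM in chow LKO libraries, and 2.95 to 5.10 and 13.5 to 44.5 CPM on the HFS diet (log2 fold change 3.77 and 2.50, edgeR adjusted p = 0.0098 and 0.048). Both calls on chow were lost without the second LKO library (edgeR adjusted p = 0.059 for *Xbp1* and 0.125 for *Ddit3*), and that of *Xbp1* also without the first (-0.68, edgeR adjusted p = 0.092) and under library totals (-0.54, edgeR adjusted p = 0.063). On the HFS diet that of *Ddit3* was lost in 5 of the 6 fits that left out 1 library. In none of the 4 lists was a gene called in a diet comparison by edgeR.

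**Figure D5:**
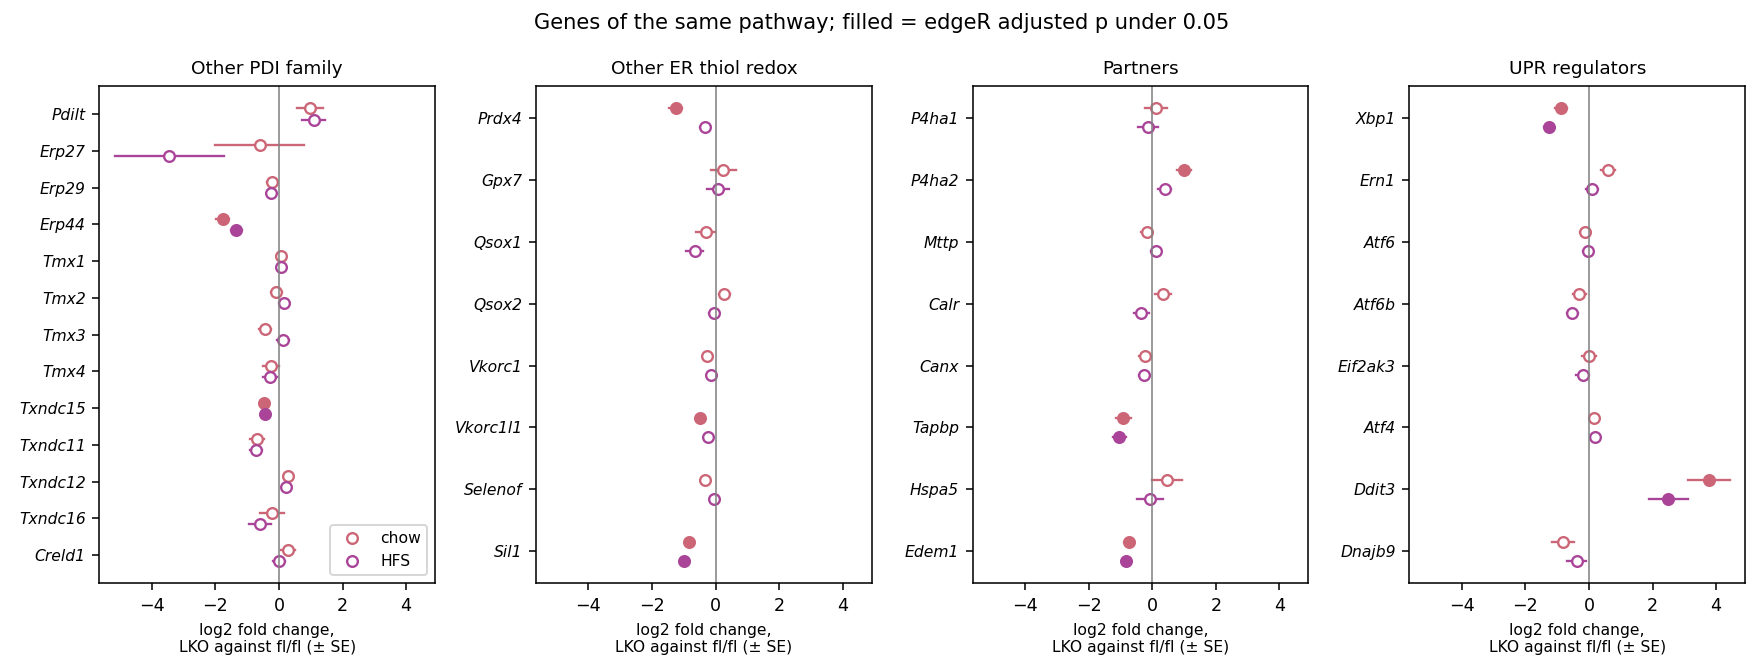
Log2 fold change of *Xbp1* LKO against *Xbp1* fl/fl hepatocytes (x axis) for the tested genes of 4 related lists, on chow and on the HFS diet, from edgeR, with 1 SE as lines and filled points where the adjusted p was under 0.05. *Erp44*, *Txndc15*, *Sil1*, *Tapbp*, *Edem1* and *Xbp1* are filled below 0 on both diets, and *Ddit3* is filled above 0 on both.

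The genes whose pattern over the 11 libraries was most like the members' mean, by Pearson's r of log2 CPM and as a description, were *Dnajc3* (r = 0.98), *Tmed9* (0.97), *Atg13* (0.96), *Sec22b* (0.96), *Selenos* (0.96), *Gmppa* (0.95), *Tmem248* (0.95), *Trabd* (0.94), *Slc35b1* (0.94) and *Srp68* (0.94). *Dnajc3* encodes the ER cochaperone P58IPK and *Sec22b* a SNARE of vesicles between the ER and Golgi. Of the 10, *Gmppa* was called lower on both diets (log2 fold change -0.79 and -0.72, edgeR adjusted p = 0.010 and 0.0092). *Selenos* was called lower on chow (-0.69, edgeR adjusted p = 0.043) and not on the HFS diet (-0.59, edgeR adjusted p = 0.054). The 10 were picked for following the members' mean over the same libraries, so a genotype difference like that of the members is built into the choice. For *Ero1l* the most alike were *Magt1*, *1700045H11Rik* and *BC024978* (r = 0.94 each), and for *Ero1lb* they were *Mlec* (0.96), *Zfp106* (0.94) and *Gfpt1* (0.94). *Magt1* encodes a thioredoxin-fold subunit of the oligosaccharyltransferase and *Mlec* the ER lectin malectin.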

How the data were processed

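The members and the other gene lists were chosen with earlier results of these data known. For each of 11 hepatocyte libraries the authors deposited a whole-number count per Ensembl gene, neither normalized nor filtered. The paper names kallisto and tximport with a stranded mRNA kit, whereas the submitters' processing notes name mm10, cutadapt 1.13, STAR, HTSeq 0.6.1p1 and DESeq2 and the labels a total RNA kit. Which of these made the files was not given in the sources used here. Groups came from the sample titles.

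Of 54232 identifiers, 54079 received symbols from GENCODE M21. In R 4.3.3, edgeR 4.0.16 applied filterByExpr (minimum count 10) and TMM and fitted its quasi-likelihood model to the 4 groups over all 11 libraries (13303 genes), p-values being adjusted after Benjamini and Hochberg and called under 0.05. P-values weigh a group difference against the spread between these libraries. That spread was estimated over all groups together, although a chow library is 1 mouse and an HFS library a pool of 2. CPM per kilobase used the union of annotated exons, and log2 CPM a prior count of 2. DESeq2 1.42.0, RLE factors, library totals, no filter, only the groups compared, a replicate block and leaving out each library were the alternatives. The code was tested on simulated counts. The text names all members, the listed genes with an adjusted p under 0.05, 4 named whatever their result (*Xbp1*, *Hspa5*, *Mttp* and *P4ha1*) and the genes of most like pattern. *Alb*, *Calr*, *Alg12*, *Bmp6*, *Gm31834*, *Catsper2* and the genes without counts were named after their values were seen. The symbol Tf of the hepatocyte list matched no identifier.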

Additional observations from a re-analysis of the deposited data

How the results depend on the processing

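Among 806 values recomputed for the members and the gene counts, 730 kept direction and side of the threshold, where a count of genes was taken as kept within 1.5 times and a sign change of an uncalled value within its SE of 0 on both sides was not counted. Many of these values were uncalled to begin with, among them all diet and interaction values of the members. The chow calls of *P4hb*, *Txndc5* and *Dnajc10* were each kept in 10 of 11 alternative fits. Their HFS calls were kept in 12, 8 and 5 of 12. With no filter on low counts, 26016 genes were tested in place of 13303. In that fit 6 members were called lower on chow and 6 on the HFS diet (adding *Pdia5*, *Creld2* and *Ero1lb*), and 2 by diet in *Xbp1* LKO (*Pdia4* and *Creld2*). All genes called, in both directions together, numbered 1507, 1438, 499, 722 and 269 in place of 632, 543, 57, 8 and 0. The order is genotype on chow, genotype on the HFS diet, diet in *Xbp1* fl/fl, diet in *Xbp1* LKO and interaction. The share of genes called lower alone was not taken in that fit. Without the filter the calls of *Txndc15* were lost on chow (edgeR adjusted p = 0.128) and on the HFS diet (0.067), and that of *Vkorc1l1* on chow (0.058). It called 1 further isomerase gene higher and 2 UPR regulators lower on each diet, and 2 ER thiol redox genes lower on the HFS diet. DESeq2 gave 1115, 987, 175, 210 and 31 genes. RLE size factors gave 636, 541, 44, 8 and 0 genes and the same calls of members. Library totals moved the median log2 fold change of all genes from 0.0024 to 0.33 on chow and from 0.0083 to 0.27 on the HFS diet and gave 3000 genes (2685 higher) and 1483 genes (1288 higher), against 230 and 256 higher before. Fits of only the groups compared gave 233 genes on chow and 0 by diet in *Xbp1* LKO. They ended the chow calls of *Txndc15* (edgeR adjusted p = 0.18), *Vkorc1l1* (0.14), *Tapbp* (0.16), *Edem1* (0.105) and *Xbp1* (0.062). On the HFS diet they called 2 UPR regulators lower and 1 further isomerase gene higher. Under library totals *Mttp* on chow changed sign to 0.14 and *Vkorc1l1* on the HFS diet to 0.0219. The cause of these changes was not tested.

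Leaving out 1 library gave 0 to 3 members lower and 0 to 1 higher on chow, 1 to 3 lower on the HFS diet, and 69 to 762, 184 to 532, 6 to 43 and 0 to 36 genes in the first 4 comparisons. Over the same fits the chow log2 fold changes ran from -0.56 to 0.60 (*Pdia3*), -0.44 to 1.09 (*Pdia4*), -1.29 to 0.10 (*Pdia6*) and -0.66 to 1.09 (*Hspa5*). By diet in *Xbp1* LKO they ran from -1.0035 to 0.17 (*Pdia3*), -1.33 to 0.20 (*Pdia4*), -0.93 to 0.47 (*Pdia6*) and -0.50 to 0.54 (*Ero1lb*), and for interaction from -0.76 to 0.40, -1.06 to 0.47, -0.63 to 0.76 and -0.51 to 0.52 in the same order. The positive ends of the diet and interaction ranges, and the negative ends for *Pdia3*, *Pdia4* and *Hspa5* on chow, came from leaving out the second chow LKO library, and the positive end for *Pdia6* on chow from leaving out the first.

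Same-numbered libraries are different mice and their deviations did not run together (15 pairs, r from -0.20 to 0.23, mean -0.0087). With the replicate number as a block, 19 genes were called by diet in *Xbp1* LKO, *Dnajc10* on the HFS diet had an edgeR adjusted p = 0.073, and the members called lower were otherwise the same. The block also ended the calls on chow of *Xbp1* (edgeR adjusted p = 0.054), *Edem1* (0.055), *Vkorc1l1* (0.052), *P4ha2* (0.069) and *Txndc15* (0.084), and on the HFS diet of *Txndc15* (0.061) and *Ddit3* (0.060). Numbers were taken from the sample titles; the second chow LKO library carries another number in its deposited file, and the correlations and block values depend on that choice.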
